A study of Mus musculus with 12 samples.

Results

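The genes described here encode the proteins of the mitochondrial ribosome. They were chosen by symbol, as every gene whose name begins with Mrpl or Mrps followed by a number, which gave 76 of the 19680 genes listed. Total RNA was measured in CJ9, a mouse embryonic stem cell line, 5 days after its cells were directed either to endoderm or to mesoderm. The 12 libraries form 4 groups of 3: arid4b∆ endoderm, WT endoderm, arid4b∆ mesoderm and WT mesoderm. All groups share this parental line, and the labels state neither the number of arid4b∆ clones nor whether libraries of a group are separate cultures, so the p-values cover spread between libraries that may be only technical. Arid4b is part of the SIN3 histone deacetylase machinery, and the study asks what it does in lineage commitment.

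The mitochondrial ribosome translates the few messages of mitochondrial DNA, all of which encode membrane subunits of the respiratory chain and ATP synthase. Its RNAs come from mitochondrial DNA, but every one of its proteins is encoded in the nucleus, made in the cytosol and imported. Some of these proteins descend from bacterial ribosomal proteins and others are specific to mitochondria. Loss of a single subunit can disable the particle, and inherited defects in human subunit genes cause respiratory chain disease.

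By current structural assignments, 49 members belong to the large subunit, among them Mrps18a and Mrps30 in spite of their names, and 26 to the small subunit. Of these, 48 have a bacterial homologue and 27 are specific to mitochondria. The remaining gene, Mrps36, carries a ribosomal name but encodes a component of the 2-oxoglutarate dehydrogenase complex.

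The proximal promoters of 7 members named in the results are shown first, since nuclear genes for mitochondrial proteins are known for promoters with motifs of general factors such as GABP, NRF1 and YY1. Each line runs from 120 bases upstream of the RefSeq start to 30 bases downstream, 5′ to 3′ on the gene's own strand, build GRCm38.p6. Only 1 start was used per gene, that nearest the outer end of the gene span, which it need not match exactly. Other starts of a gene were not searched. Capitals mark the letters of a GABP-type ETS motif (CCGGAAG or its reverse complement CTTCCGG) or of a YY1 motif (AAGATGGC or its reverse complement GCCATCTT).
Mrpl3 (chr9:105053148-105053297, plus strand): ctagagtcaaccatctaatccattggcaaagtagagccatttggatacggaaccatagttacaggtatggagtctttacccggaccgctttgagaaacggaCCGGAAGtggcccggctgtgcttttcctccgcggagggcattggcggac
Mrpl49 (chr19:6057726-6057875, minus strand): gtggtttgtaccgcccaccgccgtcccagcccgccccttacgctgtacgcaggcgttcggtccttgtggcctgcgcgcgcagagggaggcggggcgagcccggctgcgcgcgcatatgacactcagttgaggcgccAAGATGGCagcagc
Mrpl34 (chr8:71464806-71464955, plus strand): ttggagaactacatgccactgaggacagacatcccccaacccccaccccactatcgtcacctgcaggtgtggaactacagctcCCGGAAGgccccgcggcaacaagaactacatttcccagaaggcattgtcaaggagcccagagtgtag
Mrps27 (chr13:99344666-99344815, plus strand): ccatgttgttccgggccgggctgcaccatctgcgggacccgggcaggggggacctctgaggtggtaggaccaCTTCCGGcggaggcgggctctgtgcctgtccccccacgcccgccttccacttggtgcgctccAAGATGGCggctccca
Mrps18b (chr17:35916411-35916560, minus strand): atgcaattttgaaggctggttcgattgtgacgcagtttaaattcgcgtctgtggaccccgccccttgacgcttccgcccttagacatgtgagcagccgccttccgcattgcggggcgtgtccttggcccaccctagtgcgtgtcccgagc
Mrpl20 (chr4:155802758-155802907, plus strand): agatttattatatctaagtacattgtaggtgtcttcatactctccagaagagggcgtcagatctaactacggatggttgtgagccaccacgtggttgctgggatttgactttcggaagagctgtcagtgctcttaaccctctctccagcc
Mrpl46 (chr7:78783060-78783209, minus strand): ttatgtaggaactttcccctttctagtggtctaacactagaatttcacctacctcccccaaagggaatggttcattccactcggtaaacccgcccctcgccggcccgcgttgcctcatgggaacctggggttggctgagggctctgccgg
The Mrpl3 and Mrpl34 stretches each hold 1 ETS match, Mrpl49 holds 1 YY1 match just downstream of its start, Mrps27 holds 1 of each, and Mrps18b, Mrpl20 and Mrpl46 hold neither in the bases shown, so 4 of the 7 stretches hold a match. Mrps18b holds 1 ETS match just downstream of the bases shown. Mrpl15, called in mesoderm, had no promoter window and is not shown, and Mrpl46 was not called. The shares that follow are for longer windows and are not a background for the 7 stretches. RefSeq windows of 300 bases (250 upstream, 50 downstream) were found for 67 of the 76 members. The ETS letters stood in 22 of the 67 members' windows (32.8%), against 19.3% of 9244 tested genes with a window, and the YY1 letters in 12 (17.9%), against 5.03%. The NRF1 letters (GCGCA, any base, then GCGC) stood in 12 members (17.9%) against 11.4%, and the Sp1 letters GGGCGG in 33 (49.3%) against 67.0%. CCAAT was found in 40.3% of the members and 40.2% of the genes, the MYC E-box CACGTG in 7.46% against 10.6%, and TATAAA in 5.97% against 6.80%. Both strands were searched and the motifs do not contain one another. A match describes the letters of the window and is not a binding site.

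Depth was low for these genes. Libraries held 10351074 to 35660108 counts, of which the ribosomal RNA precursor Rn45s took 79.7% to 82.4%, leaving 1949299 to 6678893. Mir6236 and Lars2, which contain ribosomal RNA sequence, took 49.7% to 69.5% of the remainder. The 76 members together held 1996 to 6037 counts per library, and a floor of 3 counts equals 0.505 to 1.55 CPM (counts scaled to library size by edgeR's trimmed mean of M values, TMM). The lowest-counted member, Mrpl14, averaged 12.25 counts per library and the highest, Mrpl15, 129.9, and all 76 passed the filter on low counts. The spans of 20 members overlap another listed gene.

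The labels were set against markers. Definitive endoderm markers (Foxa2, Sox17, Gsc, Cer1, Cxcr4, Hhex) summed to 2.83 to 6.97 CPM in arid4b∆ endoderm and 134 to 218 in WT endoderm. Streak and mesoderm markers (T, Mixl1, Mesp1, Cdx2, Kdr, Pdgfra) summed to 7.38 to 13.3 CPM in arid4b∆ mesoderm, where Mesp1 was at 0 counts, and 181 to 433 in WT mesoderm. They summed to 4.57 to 6.97 CPM in arid4b∆ endoderm and 116 to 143 in WT endoderm, where Cdx2 was at 0 counts. The libraries labelled arid4b∆ thus had low summed levels of the defining markers of the lineage they are named for. Pluripotency markers (5 genes) summed to 442 to 482 CPM in arid4b∆ endoderm and 381 to 436 in WT endoderm, and to 449 to 465 in arid4b∆ mesoderm and 306 to 374 in WT mesoderm. Fibroblast or feeder markers (8 genes) summed to 76.04 to 261 CPM in arid4b∆ endoderm and 18.7 to 73.0 in WT endoderm, and to 88.0 to 209 in arid4b∆ mesoderm and 22.7 to 99.5 in WT mesoderm. Neural markers (5 genes) summed to 14.2 to 19.8 CPM in arid4b∆ endoderm and 10.2 to 11.9 in WT endoderm, and to 10.1 to 15.7 in arid4b∆ mesoderm and 8.58 to 12.5 in WT mesoderm. The genotype ranges of these levels were apart in each lineage, except for fibroblast or feeder and neural markers in mesoderm, which overlapped. Levels that move with the genotype thus lie beside every arid4b∆ comparison below, and their part in it was not tested. Arid4b itself had 46.2 ± 4.27 CPM in arid4b∆ endoderm and 41.0 ± 3.97 in WT endoderm, and 44.6 ± 2.96 in arid4b∆ mesoderm and 42.0 ± 4.77 in WT mesoderm (SD, n = 3 each), so whole-gene counts do not check the deletion. In bulk RNA, fewer cells of a type and less RNA per cell cannot be told apart.

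The CPM of the mitochondrial ribosomal protein genes summed to 1056 ± 70.0 in arid4b∆ endoderm and 1059 ± 23.6 in WT endoderm, and to 1043 ± 38.4 in arid4b∆ mesoderm and 972 ± 86.0 in WT mesoderm (SD, n = 3 each). The groups overlapped in endoderm and in mesoderm. The wide spread of WT mesoderm came from its library 3, at 872.9 CPM, while the other 11 libraries lay between 975.2 and 1099.4. That library was not shallow, with 5260048 counts after removal of Rn45s. The ratio of small to large subunit sums stayed between 0.4375 and 0.494 in all 12 libraries. The plot of summed levels shows both subunits.

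**Figure D1:**
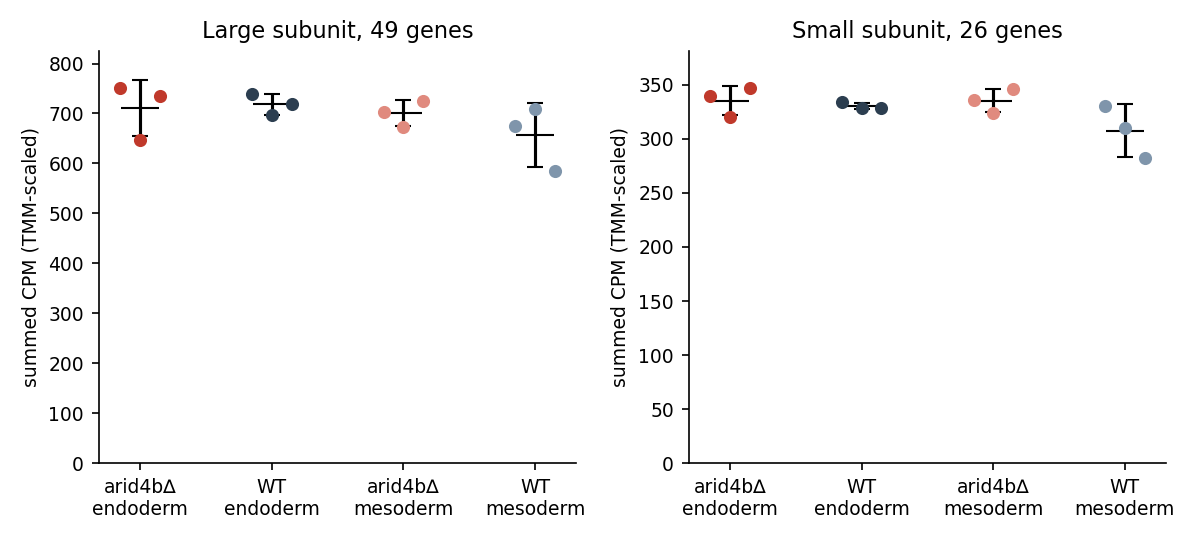
Summed TMM-scaled CPM of the 49 large-subunit genes (left) and the 26 small-subunit genes (right) in each library (points), with the group mean and SD (n = 3) as bars. WT mesoderm library 3, the rightmost point, is lowest in both panels.

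Levels between genes were compared per kilobase of exon, a quantity that also moves with the annotated length of the 3′ end. Mrpl42, a mitochondrion-specific protein, was highest at 39.2 CPM per kb over the 12 libraries. It was followed by Mrpl12, the stalk protein that binds translation factors (30.1), Mrpl34 (24.5), Mrpl13 (23.7) and Mrpl52 (21.6). The lowest were Mrpl48 (1.05), Mrpl17 (2.89), Mrpl1, the L1 stalk protein (3.46), Mrpl19 (3.52) and Mrpl35 (3.63 CPM per kb). Their exon lengths ran from 3551 to 6712 bases. Before division by length, Mrpl17 (19.4 CPM), Mrpl19 (17.6), Mrpl35 (13.4) and Mrpl1 (12.3) lay above the members' median of 12.06 CPM. Mrpl48 (4.46 CPM) lay below it. The median level was 11.1 CPM per kb for the 31 large-subunit proteins with a bacterial homologue, 11.9 for the 18 mitochondrion-specific ones, and 9.11 and 8.58 for the 17 and 9 of the small subunit. Among the 3 mammalian relatives of bacterial S18, each of which occupies its own place in the ribosome, Mrps18b (21.3) and Mrps18c (21.1 CPM per kb) stood close together and Mrps18a was at 11.1.

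In cells directed to endoderm few members were called. Of 76, 1 was higher in arid4b∆ than in WT and 0 were lower (edgeR quasi-likelihood test, Benjamini-Hochberg adjusted p under 0.05), while 12.7% of the 11635 tested genes were called, 5.78% higher and 6.92% lower. At an unadjusted p under 0.05, 1 member was higher and 3 were lower, and DESeq2 called 0. Here and below, counts at an unadjusted p have no share of all tested genes beside them. They are not read as results about the members. The median log2 fold change of the members was −0.01, against −0.0037 for all tested genes, and 44 of 76 were below 0 (background 50.5%).

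Mrpl49, a mitochondrion-specific protein of the large subunit (chromosome 19, 6053630 to 6057755, minus strand, GRCm38.p6), was the 1 member called in endoderm. It stood at 21.8, 20.7 and 20.0 CPM in arid4b∆ endoderm and at 14.5, 15.8 and 14.4 CPM in WT endoderm. The groups did not overlap, and the log2 fold change was 0.47 ± 0.14 (SE; edgeR adjusted p = 0.0273). In mesoderm Mrpl49 had 22.6, 19.4 and 18.4 CPM in arid4b∆ cells and 17.0, 14.9 and 17.0 CPM in WT cells, again without overlap, with a log2 fold change of 0.28 ± 0.14 that was not called (adjusted p = 0.185). The effects in the lineages were not shown to differ (interaction 0.18 ± 0.20, 95% interval −0.23 to 0.60, adjusted p = 0.839). Its endoderm call ended with DESeq2 (adjusted p = 0.149), without the filter on low counts (0.0569) and without any 1 of the 6 endoderm libraries (0.0514 to 0.0833), while the log2 fold change held at 0.47, 0.47 and 0.44 to 0.52 in these runs. Mrpl49 overlaps Syvn1 on the other strand, and the sources used here do not give whether counting used strand. The log2 fold change of Syvn1 was −0.09 in endoderm and −0.11 in mesoderm, neither called.

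Mrpl3 (chromosome 9, 105053268 to 105077466, plus strand), a large-subunit protein with a bacterial homologue that sits close to the peptidyl transferase center, was the clearest in the other direction. It had 16.3, 18.5 and 20.2 CPM in arid4b∆ endoderm and 21.8, 25.9 and 23.7 CPM in WT endoderm. Every arid4b∆ library lay below every WT library, with a log2 fold change of −0.38 ± 0.14 that was not called (edgeR adjusted p = 0.0725). In mesoderm it had 17.6, 17.5 and 18.7 CPM in arid4b∆ cells and 27.9, 24.2 and 22.4 CPM in WT cells, and there it fell by 0.46 on the log2 scale (± 0.14, adjusted p = 0.0275). The interaction was 0.08 ± 0.20 (adjusted p = 0.952), so the 2 lineages were not shown to differ. The mesoderm call ended with DESeq2 (adjusted p = 0.117) and without arid4b∆ mesoderm library 1, 2 or 3 (0.0735, 0.0781, 0.0534) or WT mesoderm library 1 (0.122). The log2 fold change was −0.46 with DESeq2, −0.45, −0.44 and −0.49 without the arid4b∆ libraries and −0.35 without that WT library.

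Mrpl1 (chromosome 5, 96209498 to 96266727, plus strand), the protein of the mobile L1 stalk, also stood lower. Its values were 13.1, 10.5 and 11.7 CPM in arid4b∆ endoderm and 15.7, 15.1 and 16.4 CPM in WT endoderm. In mesoderm they were 11.2, 7.1 and 8.8 CPM in arid4b∆ cells and 10.5, 12.4 and 15.1 CPM in WT cells. The endoderm groups were apart and the mesoderm groups overlapped, and neither difference was called (edgeR log2 fold change −0.43 ± 0.18, adjusted p = 0.126, and −0.51 ± 0.20, adjusted p = 0.0832). The other members with the smallest p in endoderm were Mrpl36, a small bacterial-type protein of the large subunit (−0.61 ± 0.26, adjusted p = 0.128), Mrpl46 (−0.44 ± 0.22, 0.231) and Mrps30 (−0.23 ± 0.12, 0.271), none of them called. Over the module, 4 members lay wholly above and 5 wholly below WT in endoderm, 11.8% in all, against 14.7% above, 15.5% below and 30.2% in all of tested genes.

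Mrpl46 and Mrps11, a large-subunit and a small-subunit gene, lie head to head on chromosome 7 with 41 bases between them. In endoderm Mrpl46 had 8.1, 6.1 and 7.3 CPM in arid4b∆ cells and 11.9, 9.9 and 6.8 CPM in WT cells. Mrps11 had 7.6, 8.1 and 5.3 CPM in arid4b∆ endoderm and 5.8, 5.8 and 7.1 CPM in WT endoderm (log2 fold change 0.17 ± 0.24, edgeR adjusted p = 0.729). Neither gene of the pair was called and the groups overlapped for both.

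**Figure D2:**
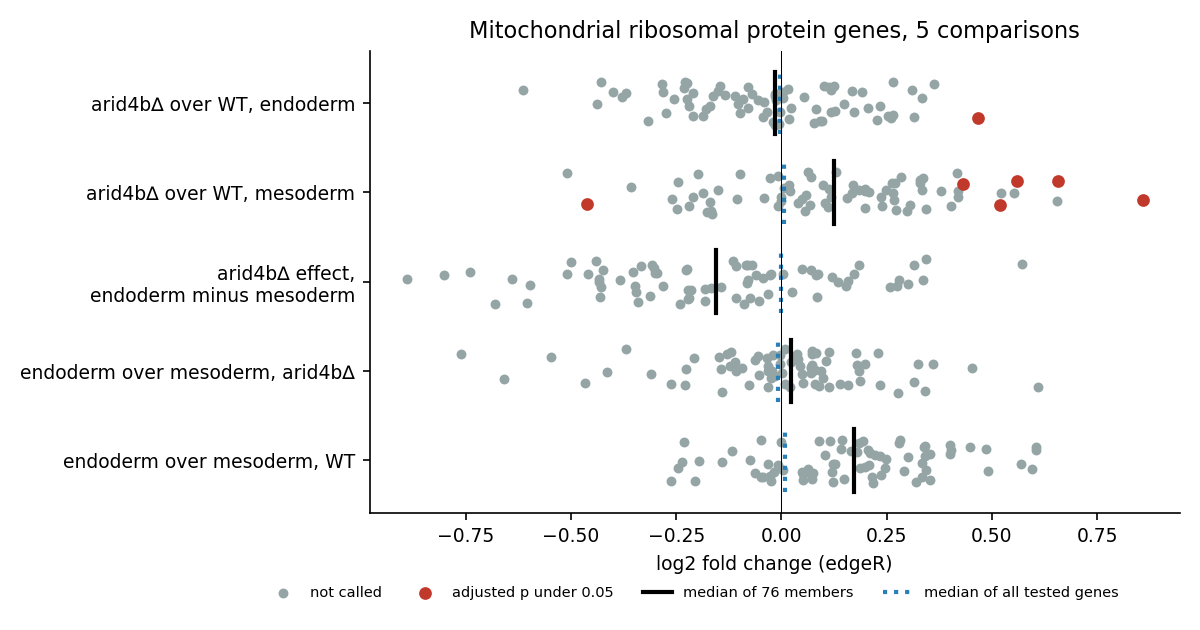
Each point is 1 of the 76 members, plotted at its edgeR log2 fold change in 5 comparisons, with vertical scatter for legibility. Red points are called at adjusted p under 0.05: 1 in endoderm and 6 in mesoderm. The black bar is the members' median (−0.01, 0.12, −0.15, 0.02 and 0.17 from top to bottom) and the dotted blue bar that of all tested genes.

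In cells directed to mesoderm, 5 members were higher in arid4b∆ than in WT and 1 was lower, with 19.1% of tested genes called, 8.93% higher and 10.2% lower. The 5 that rose were Mrpl34, Mrps18b, Mrpl20, Mrps27 and Mrpl15, and the 1 that fell was Mrpl3. They come from both subunits and from both the bacterial and the mitochondrion-specific classes. The members' median was 0.12 and 53 of 76 were above 0, against 50.7% of tested genes. Groups did not overlap for 12 members that stood higher and 2 that stood lower, 18.4% in all, against 15.7%, 17.1% and 32.8% of tested genes.

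Mrpl34, a short bacterial-type protein of the large subunit (chromosome 8, 71464926 to 71465753, plus strand), had the largest difference of the module in mesoderm. It had 15.9, 18.8 and 18.7 CPM in arid4b∆ mesoderm and 12.97, 11.8 and 6.4 CPM in WT mesoderm. The lowest value is that of WT library 3, and the log2 fold change was 0.86 ± 0.22 (edgeR adjusted p = 0.00805). In endoderm its levels of 16.9, 13.4 and 18.4 CPM in arid4b∆ cells and 16.3, 13.4 and 15.3 CPM in WT cells overlapped (0.12 ± 0.20, adjusted p = 0.779).

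Mrps18b (chromosome 17, 35910380 to 35916440, minus strand) had 24.9, 27.1 and 27.99 CPM in arid4b∆ mesoderm and 21.7, 17.0 and 15.7 CPM in WT mesoderm. It rose by 0.56 ± 0.15 on the log2 scale (edgeR adjusted p = 0.00911), and its paralogs Mrps18a and Mrps18c were not called. Mrpl20, which is needed early in large-subunit assembly in bacteria (chromosome 4, 155802878 to 155808831, plus strand), had 12.02, 15.4 and 19.7 CPM in arid4b∆ mesoderm and 10.2, 10.8 and 9.4 CPM in WT mesoderm. It rose by 0.66 ± 0.20 (adjusted p = 0.0244), with a wider spread among the arid4b∆ libraries than among the WT ones.

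Mrps27, an RNA-binding pentatricopeptide repeat protein of the small subunit (chromosome 13, 99344767 to 99415562, plus strand), had 22.6, 23.1 and 26.7 CPM in arid4b∆ mesoderm and 19.2, 16.5 and 15.1 CPM in WT mesoderm. It rose by 0.52 ± 0.16 (edgeR adjusted p = 0.0261). It overlaps 6430562O15Rik on the other strand, which was not called (0.44 ± 0.36). Mrpl15, a core protein of the large subunit (chromosome 1, 4773198 to 4785750, minus strand), had 34.9, 32.6 and 39.2 CPM in arid4b∆ mesoderm and 31.7, 25.2 and 22.7 CPM in WT mesoderm, and rose by 0.43 ± 0.14 (adjusted p = 0.0343). For Mrpl34, Mrps18b, Mrps27 and Mrpl15 the lowest of the 6 mesoderm values was that of WT library 3, and so it was for Mrpl20.

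**Figure D3:**
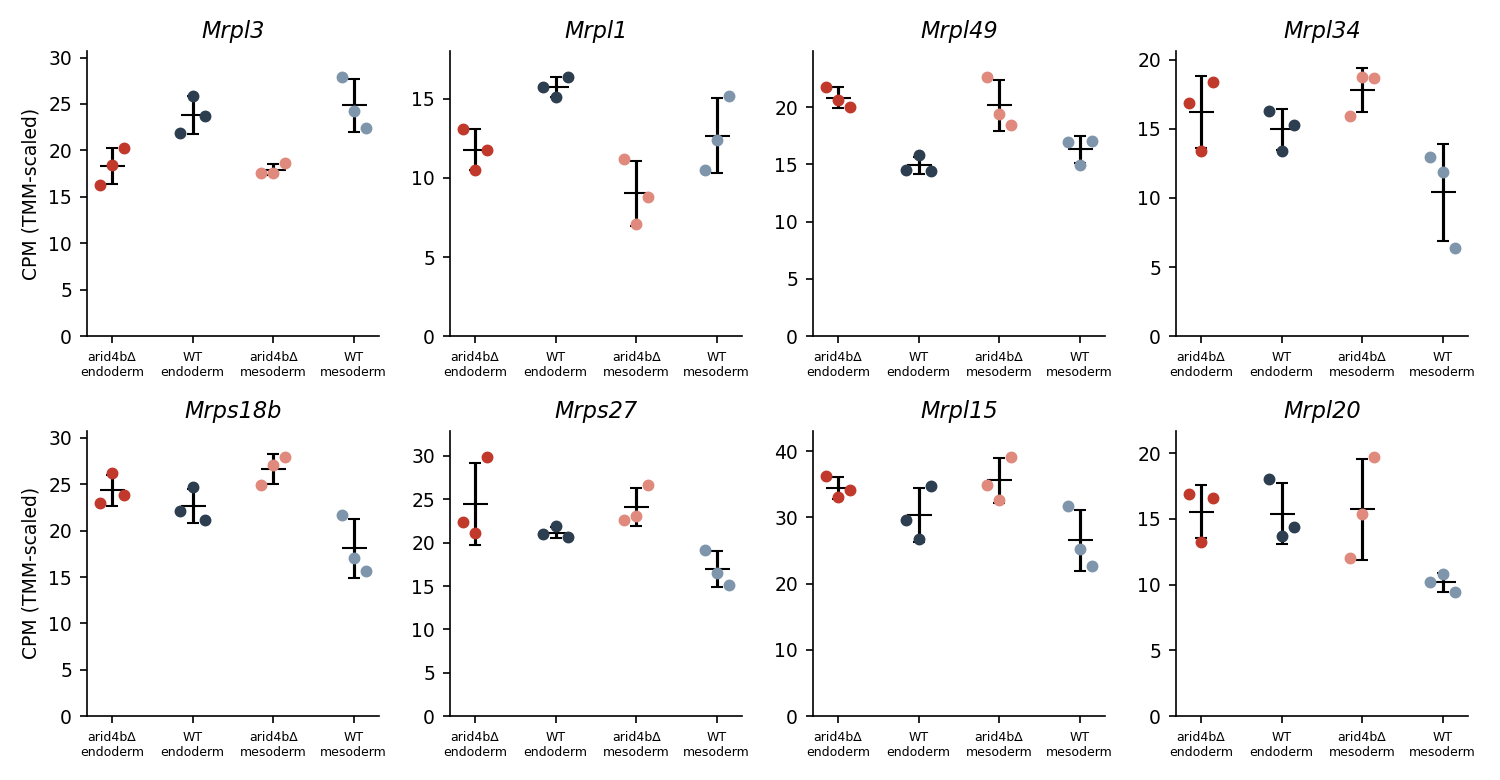
TMM-scaled CPM of 8 members in each library (points), with group means and SD (n = 3). Mrpl3 is lower and Mrpl49 higher in every arid4b∆ library than in every WT library of the same lineage, whereas the mesoderm differences of Mrpl34, Mrps18b, Mrps27, Mrpl15 and Mrpl20 lie beside a low WT mesoderm group.

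The calls of the mesoderm rises ended without WT mesoderm library 3, which leaves 2 libraries in that group, and 0 members were then higher at adjusted p under 0.05. The log2 fold change of Mrpl34 was 0.50 without that library (edgeR adjusted p = 0.113), against 0.86 with all libraries. It was 0.42 for Mrps18b (0.0929), 0.59 for Mrpl20 (0.112), 0.41 for Mrps27 (0.158) and 0.29 for Mrpl15 (0.237), each still above 0 and within 1.5 times of its value with all libraries, while Mrpl3 stayed called. The median of the members was then 0.01 and 39 of 76 were above 0. Of 85 cytosolic ribosomal protein genes, 59 were above 0 with all libraries and 20 without WT mesoderm library 3. The plot of medians by library left out shows both lists. Over the 6 mesoderm libraries left out in turn, the median of all tested genes stayed between −0.00092 and 0.0174. Leaving out arid4b∆ mesoderm library 3 kept 2 of the members higher, leaving out WT mesoderm library 2 kept 3, the call of Mrpl15 also ended without arid4b∆ mesoderm library 1 (0.0622), and DESeq2 called 2 higher (Mrpl34 and Mrps18b) and 0 lower.

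**Figure D4:**
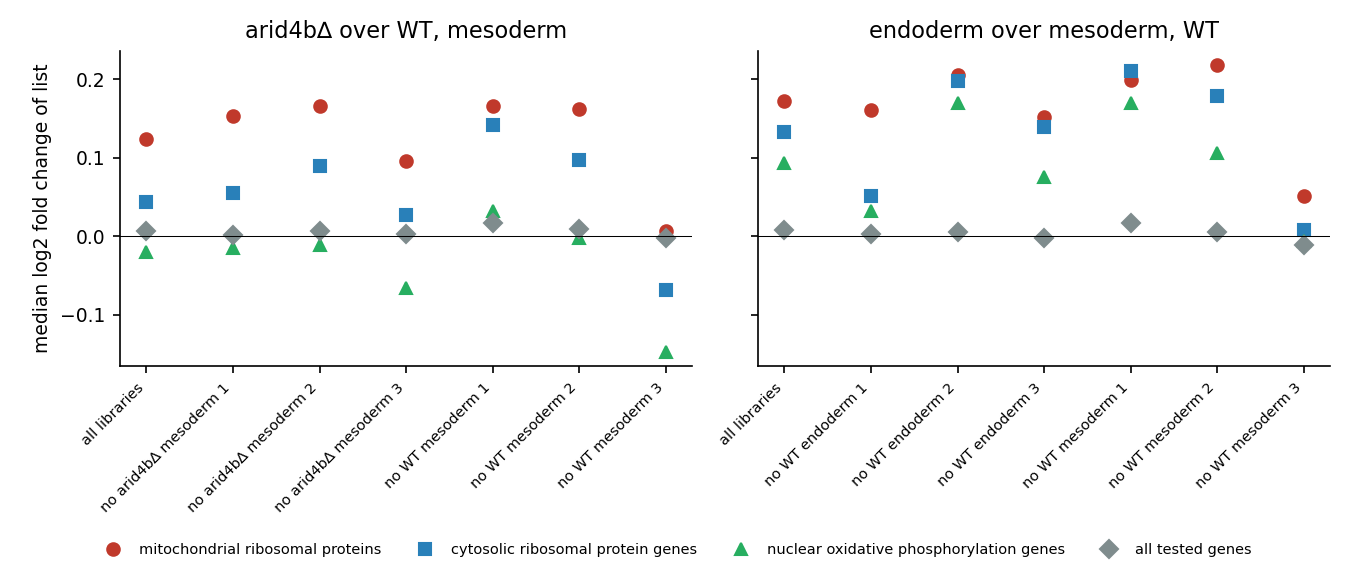
Median log2 fold change of 4 gene lists with all libraries and with each library left out in turn, for arid4b∆ over WT in mesoderm (left) and for endoderm over mesoderm in WT (right). Without WT mesoderm library 3 the mitochondrial ribosomal protein median is 0.01 at left and 0.05 at right, against 0.12 and 0.17 with all libraries.

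Whether the arid4b∆ effect differed between the lineages was tested as an interaction in the same fit. Of 76 members, 0 were called in either direction (background 1.4%, with 0.627% higher and 0.774% lower), with 5 at an unadjusted p under 0.05, each of them lower in endoderm relative to mesoderm, and 0 by DESeq2. The members with the smallest p were Mrpl34 (−0.74 ± 0.30, edgeR adjusted p = 0.325), Mrpl20 (−0.64 ± 0.27, 0.366), Mrps18b (−0.46 ± 0.20, 0.393), Mrps30 (−0.42 ± 0.18, 0.394), Mrps16, a small-subunit protein (−0.89 ± 0.43, 0.479), and Mrpl38 (−0.43 ± 0.21, 0.489). The members' median was −0.15 and 55 of 76 were below 0 (background 50.1%), and the median was −0.07 without WT mesoderm library 3 and −0.07 without arid4b∆ endoderm library 2. With all libraries, 78 of 85 cytosolic ribosomal protein genes were below 0 as well (median −0.13), so the lean was not particular to the members. For nuclear oxidative phosphorylation genes it was 43 of 77 (median −0.04). The precision was low: the 95% interval lay within 1.5-fold for 11 members and within 2-fold for 54.

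Between the lineages, members were compared within a genotype. Markers of extraembryonic endoderm (Afp, Ttr, Apoa1, Apob, Amn, Cubn) moved with the lineage. They summed to 4.45 to 10.2 CPM in arid4b∆ endoderm and 26.6 to 34.7 in arid4b∆ mesoderm, and to 4.80 to 12.5 in WT endoderm and 16.0 to 47.4 in WT mesoderm. Both of the 2 tested were called lower in endoderm in each genotype, and their part in the comparisons was not tested. In arid4b∆ cells 0 of 76 were called between endoderm and mesoderm (background 1.86%, with 0.954% higher and 0.902% lower; 4 at an unadjusted p under 0.05; 0 by DESeq2), and the median was 0.02. Mrps12, the decoding-site protein of the small subunit, had 5.2, 6.9 and 3.6 CPM in arid4b∆ endoderm and 8.7, 9.5 and 9.1 CPM in arid4b∆ mesoderm (log2 fold change −0.76 ± 0.27, edgeR adjusted p = 0.183). Its groups were apart but the difference was not called. Mrpl53 (0.61 ± 0.26, adjusted p = 0.293), Mrpl38 (−0.31 ± 0.15, 0.377), Mrpl41 (0.45 ± 0.21, 0.378), Mrps25 (0.28 ± 0.14, 0.442) and Mrps16 (−0.55 ± 0.30, 0.478) were likewise not called. Mrpl53 overlaps Ccdc142 on its own strand, and reads of the pair cannot be told apart where they overlap.

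In WT cells 0 of 76 members were called between endoderm and mesoderm (background 9.84%, with 4.41% higher and 5.43% lower), and DESeq2 called 0. At an unadjusted p under 0.05 there were 8, each higher in endoderm. The background is for adjusted p, so it cannot be set against these 8. The median was 0.17, with 57 of 76 above 0 against 51.3% of tested genes. This lean was not particular to the members. Above 0 were also 84 of 85 cytosolic ribosomal protein genes (median 0.13) and 59 of 77 nuclear oxidative phosphorylation genes (median 0.09). Among the members Mrpl20 came closest to a call, with 18.04, 13.7 and 14.4 CPM in WT endoderm and 10.2, 10.8 and 9.4 CPM in WT mesoderm (0.61 ± 0.20, edgeR adjusted p = 0.0561). Its groups did not overlap. Mrps30 (0.40 ± 0.13, adjusted p = 0.0567), Mrpl34 (0.60 ± 0.22, 0.101), Mrps26 (0.60 ± 0.24, 0.134), Mrps18b (0.34 ± 0.15, 0.168) and Mrpl23, a protein near the exit tunnel (0.57 ± 0.26, 0.201), followed. Without the filter on low counts Mrpl20 (edgeR adjusted p = 0.0294) and Mrpl34 (0.0356) were called. Mrps30 was called without WT endoderm library 1 (0.0273), and Mrpl34 (0.0142) and Mrps18b (0.0347) without WT mesoderm library 1. This comparison uses the same WT mesoderm libraries as the arid4b∆ comparison in mesoderm, and without library 3 the median was 0.05 and 45 of 76 were above 0. Over the 6 WT libraries left out in turn, the median of all tested genes stayed between −0.0112 and 0.0156.

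The arid4b∆ effect averaged over both lineages, a contrast added after the data were seen and built from the same 12 libraries, gave more precision. It called 5 members higher and 2 lower, with 28.2% of tested genes called, 13.9% higher and 14.3% lower. Mrpl3 fell by 0.42 on the log2 scale (± 0.10, edgeR adjusted p = 0.00293, 95% interval −0.63 to −0.21), and Mrpl1 fell by 0.47 (± 0.13, adjusted p = 0.0116). Mrpl49 rose by 0.38 ± 0.10 (adjusted p = 0.00687, interval 0.17 to 0.58), beside Mrps27 (0.36 ± 0.11, 0.0155), Mrps18b (0.33 ± 0.10, 0.016), Mrpl34 (0.49 ± 0.15, 0.0164) and Mrpl15 (0.31 ± 0.10, 0.0185). Mrpl3 and Mrpl49 stayed called under all 18 alternatives run, with adjusted p up to 0.0159 and 0.0444. Without WT mesoderm library 3, 1 member was higher and 1 lower, and the calls of Mrps27 (log2 fold change 0.31, edgeR adjusted p = 0.0568), Mrps18b (0.26, 0.0683), Mrpl34 (0.31, 0.0844), Mrpl15 (0.24, 0.0752) and Mrpl1 (−0.36, 0.0697) ended. Of these 5, Mrpl34 was the 1 whose value moved by over 1.5 times. The call of Mrps27 also ended without arid4b∆ endoderm library 3 (0.0616), and that of Mrpl15 without WT endoderm library 2 (0.068) or arid4b∆ mesoderm library 3 (0.0555). DESeq2 kept 2 higher, Mrpl49 and Mrpl34, and 1 lower, Mrpl3.

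The intervals give the precision reached. In the averaged contrast the 95% interval lay within 1.5-fold of no change for 59 of 76 members and within 2-fold for all 76. In endoderm it lay within 1.5-fold for 43 and within 2-fold for 74, and in mesoderm for 24 and 69. The coefficient of variation between libraries that edgeR estimates had a median of 10.2% for the members and 10.03% for all tested genes. Each gene's estimate is drawn toward a trend over all genes. Near-equal medians therefore do not show that the members' replicate spread equals that of other genes.

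Other genes of mitochondrial expression were read in the same fit, where 12.7% of tested genes were called in endoderm, 19.1% in mesoderm and 28.2% in the averaged contrast. None of the 7 ribosomal subunits with other names (such as Dap3, Ptcd3 and Gadd45gip1) was called in endoderm or mesoderm; at an unadjusted p under 0.05 there were 0 and 3, and the averaged contrast called Gadd45gip1 (0.37 ± 0.11, edgeR adjusted p = 0.0195) and Ptcd3 (0.23 ± 0.08, 0.0344) higher. Of 26 tested genes for ribosome assembly and rRNA modification 0 were called in either lineage (4 and 4 at an unadjusted p under 0.05), as were 0 of 16 translation factors (1 and 1) and 0 of 10 genes of mitochondrial DNA transcription and upkeep (3 and 2). In the averaged contrast the GTPase Noa1 (0.44 ± 0.14, edgeR adjusted p = 0.0233) and the assembly factor Mpv17l2 (0.84 ± 0.30, 0.0408) were higher, and the membrane insertase Oxa1l was lower (−0.28 ± 0.08, 0.0151). It also called Peo1 (0.30 ± 0.10, 0.0251), a helicase gene of the mitochondrial DNA list that overlaps Mrpl43 on the opposite strand, and the synthetase Cars2 (0.65 ± 0.14, 0.00151) higher. Of 77 oxidative phosphorylation genes it called 0 higher and 4 lower, namely Ndufa4 (−0.37 ± 0.12, edgeR adjusted p = 0.0279), Ndufs4 (−0.36 ± 0.12, 0.0293), Atp5g3 (−0.32 ± 0.11, 0.0296) and Uqcrc2 (−0.23 ± 0.08, 0.0318), and of 85 cytosolic ribosomal protein genes 3 higher and 3 lower. Of 19 mitochondrial aminoacyl-tRNA synthetases 0 were called in endoderm and 1 in mesoderm: Cars2, which charges the cysteine tRNA, averaged 15.01 ± 1.66 CPM in arid4b∆ mesoderm and 8.28 ± 1.89 in WT mesoderm (SD, n = 3 each; 0.94 ± 0.21 SE, edgeR adjusted p = 0.00252). Of 77 nuclear genes of oxidative phosphorylation 1 fell in endoderm, Cox6b2, a testis-type subunit of cytochrome oxidase (−0.86 ± 0.25, adjusted p = 0.0244), and 1 fell in mesoderm, Sdha, the flavoprotein of succinate dehydrogenase (−0.28 ± 0.10, 0.0492). Of 85 cytosolic ribosomal protein genes 1 rose in endoderm, Rps4y2 (0.70 ± 0.13, adjusted p = 0.00104), and 3 rose in mesoderm, among them Rps4y2 (0.84 ± 0.13, 8.37e-05) and Rpl13 (0.39 ± 0.13, 0.0379); members of this family have near-identical copies, so their counts are uncertain.

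Among 10 tested regulators of nuclear mitochondrial genes, Mycn and Myc were called in endoderm and Mycn and Pprc1 in mesoderm. That is 10% higher and 10% lower in endoderm, against 5.78% and 6.92% of tested genes. In mesoderm it is 20% higher, against 8.93%, and 0 lower, against 10.2%. With 10 genes these shares are coarse, and the list is not read as standing out. Mycn, a growth regulator of the family, averaged 45.01 ± 4.97 CPM in arid4b∆ endoderm and 31.8 ± 0.868 in WT endoderm, and 40.9 ± 0.243 in arid4b∆ mesoderm and 25.5 ± 5.89 in WT mesoderm (SD, n = 3 each). It rose in both lineages (0.51 ± 0.13, edgeR adjusted p = 0.0108, and 0.70 ± 0.14, 0.00131). Myc fell in endoderm (−0.53 ± 0.15, adjusted p = 0.0234) and was not called in mesoderm (0.47 ± 0.18, 0.0714). Pprc1, a coactivator related to PGC-1α, rose in mesoderm (0.48 ± 0.11, adjusted p = 0.00274) and was not called in endoderm (0.17 ± 0.11, 0.345). The remaining 7 were not called in either lineage.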

How the data were processed

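Libraries were made from total RNA with rRNA depletion and a strand-preserving kit, and were read on an Illumina HiSeq2000, per the labels' protocols. The authors deposited whole-number counts of reads for each gene. The submitters' processing notes name STAR, DESeq2 and the build mm10; the counting program, its strand setting, the annotation and all versions were not given in the sources used here. Groups and replicate numbers come from the sample titles.

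Rn45s counted neither toward library sizes nor in tests. For 26 genes, none of them a member, a calendar date stood in place of a count and they were dropped. Counts were tested in R 4.3.3 with edgeR 4.0.16: TMM scaling, filterByExpr with a minimum count of 10, 1 fit of 4 group means over 12 libraries, the quasi-likelihood test, and Benjamini-Hochberg adjustment over 11635 genes at 0.05. Alternatives were RLE and upper-quartile scaling, DESeq2 1.42.0, no filter, Mir6236 and Lars2 left out, the replicate number as a block, and each library left out in turn. The code was tested on simulated data.

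The members and gene lists were chosen with earlier results of these data known. Named members are those called in a comparison, or where fewer than 6 were called those with the smallest p, and the 5 highest and 5 lowest per kilobase. Some named members fall outside this rule, such as Mrps11, the neighbour of Mrpl46, and Mrps18a and Mrps18c, the paralogs of Mrps18b. The averaged contrast, its named genes and the sign counts were added after the data were seen. Exon lengths are those of the principal GENCODE M21 transcript, and gene spans and promoter sequences are from RefSeq, build GRCm38.p6, which is the assembly released as mm10. Reads carry no molecular identifiers, so floors cover counting error only.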

Additional observations from a re-analysis of the deposited data

Results flagged for a closer look

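The arid4b∆ effect on Myc, a growth regulator and 1 of the 10 tested regulators of nuclear mitochondrial genes, differed between the lineages by −1.003 ± 0.24 on the log2 scale (endoderm minus mesoderm, SE, edgeR adjusted p = 0.0312). Myc averaged 13.9 ± 1.07 CPM in arid4b∆ endoderm and 20.3 ± 2.04 in WT endoderm, and 13.8 ± 2.35 in arid4b∆ mesoderm and 9.72 ± 0.867 in WT mesoderm (SD, n = 3 each). WT endoderm stood above WT mesoderm by 1.03 ± 0.17 (edgeR adjusted p = 0.000182). Myc was flagged by a scan of the listed genes, markers left out, for interaction calls, and the interaction called 1.4% of tested genes. No value of Myc with DESeq2 or with a library left out is given here, so its dependence on WT mesoderm library 3 is not shown.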

How the results depend on the processing

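The members' median kept its sign under every alternative run in mesoderm, in the interaction and between the lineages in WT, but not in endoderm (−0.07 to 0.06), between the lineages in arid4b∆ (−0.02 to 0.09) or in the averaged contrast (−0.0064 to 0.10). DESeq2 called 0 members higher in endoderm, 2 higher and 0 lower in mesoderm, and 2 higher and 1 lower in the averaged contrast. Without the filter on low counts 0 members were higher in endoderm, 2 were higher in WT endoderm against WT mesoderm, and 377 and 483 genes were called in the interaction and between the lineages in arid4b∆, against 163 and 216. Nothing in the labels says that replicate numbers pair libraries. Same-numbered libraries correlated at −0.056 to 0.193 (5 of 18 pairs over 0.1, against 2 of 36 with different numbers), 9 of 12 correlated best with their own number, and the libraries numbered 3 had the lowest share of Mir6236 and Lars2 in all 4 groups, which is a hint from the data and not from the design. With the replicate block, 1 member was higher in WT endoderm against WT mesoderm (Mrpl20, adjusted p = 0.0307), and 255 and 377 genes were called in the interaction and between the lineages in arid4b∆. With each library left out in turn, members called ranged from 0 to 0 higher in endoderm, 0 to 5 higher and 0 to 1 lower in mesoderm, 0 to 2 higher between the lineages in WT, and 1 to 7 higher and 1 to 2 lower in the averaged contrast. Genes called ranged from 836 to 1321 in endoderm, 1472 to 2467 in mesoderm, 104 to 354 in the interaction, 59 to 237 between the lineages in arid4b∆ and 741 to 1391 in WT. The members' median ranged from 0.0071 to 0.166 in mesoderm, −0.216 to −0.066 in the interaction and 0.0517 to 0.218 between the lineages in WT, with the values nearest 0 without WT mesoderm library 3. The cause of these shifts was not tested.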
